A study of Mus musculus with 16 samples.

Results

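This comparison holds the 4 libraries made from embryonic stem (ES) cells before any differentiation, 2 labelled wild-type (WT) and 2 labelled Taf4a-/- (KO), of 16 libraries in all. The members were chosen by their labels alone, and every gene of the table was read in them. Of 27807 genes listed, 16124 had a mean of at least 10 normalised counts over the 16 libraries and were tested. Per the study's methods, the ES lines were derived from blastocysts of crosses between mice heterozygous for a Taf4a null allele on the C57Bl6J background, with 2 independent lines of each genotype, on which each genotype here rests. All 4 lines were grown on a layer of growth-inactivated embryonic fibroblasts, in medium with foetal calf serum and leukaemia inhibitory factor (LIF). The genotype is that of the whole line from the embryo onwards, and the WT lines carry no Cre or other transgene that the labels name. The libraries were made from poly-A RNA with a kit that does not mark the strand, so that reads from genes that overlap on opposite strands cannot be told apart. Library depth, as whole reads recovered from the normalised values, was 32631020 to 40711826 reads in genes.

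TFIID is the general transcription factor that recognises core promoters and helps to place RNA polymerase II at the start site. It consists of the TATA-binding protein (TBP) and TBP-associated factors, the TAFs. Taf4a encodes TAF4, which pairs with TAF12 through histone folds in the core of the complex, and Taf4b encodes its paralogue. ES cells are kept in a self-renewing state by transcription factors such as Oct4 (Pou5f1), Sox2 and Nanog, with LIF acting through Stat3.

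Taf4a (ENSMUSG00000039117, NCBI37 chromosome 2, 179646851 to 179711351, minus strand) had 1858 and 1752 normalised counts in the WT and 2400.0 and 2388 in the KO libraries. The values did not overlap between genotypes, and the KO values were the higher ones. Its log2 change (KO minus WT, on log2(normalised count + 1)) was 0.41 with a standard error of 0.15 (limma unadjusted p 0.0199, adjusted p 0.335). Per the study, the null allele lacks exons 11 and 12. In the GENCODE M1 transcript of 15 exons and 4422 bases, the exons of those numbers span 131 and 126 bases, together 5.81% of the transcript. A count per gene therefore keeps the reads of the other exons and does not check the genotype. Whether the study counts exons from the same transcript is not given in the sources used here. Both exons of that transcript are coding, and their summed length of 257 bases leaves a remainder of 2 when divided by 3. They are shown because they are the stretch that the allele removes if that numbering holds. Exon 11 lies at chr2:179658684-179658814 and exon 12 at chr2:179657659-179657784 (NCBI37, minus strand, written 5′ to 3′).
Taf4a exon 11: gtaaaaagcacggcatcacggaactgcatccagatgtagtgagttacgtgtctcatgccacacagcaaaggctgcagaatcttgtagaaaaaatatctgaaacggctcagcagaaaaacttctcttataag
Taf4a exon 12: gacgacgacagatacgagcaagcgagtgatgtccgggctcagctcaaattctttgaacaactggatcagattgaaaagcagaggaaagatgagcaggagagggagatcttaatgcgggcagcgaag
The paralogue Taf4b had 1223 and 929 normalised counts in WT, compared with 1490.1 and 1479 in KO. Per kilobase of exon, Taf4a stood at 401 and 378 in WT, compared with 518 and 515 in KO, and Taf4b at 237 and 180 in WT, compared with 289 and 287 in KO. Taf4b was thus measured below Taf4a per length in each of the 4 libraries.

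The 10 markers of ES cells, among them Pou5f1, Sox2, Nanog and Esrrb, were abundant in every library, with a lowest value of 1749 normalised counts (Zfp42 in WT replicate 1). Pou5f1 had 29929.9 and 27999 in WT, compared with 30812 and 36606 in KO, and Sox2 had 10942 and 15036 (WT) and 17044 and 14370.1 (KO). Nanog had 6242 and 22357 in WT, compared with 18212 and 16742 in KO, so that both KO values lay between those of the WT libraries. The libraries of one genotype differed from each other. The 2 WT libraries were at least 1 log2 unit apart in 3032 of the tested genes (18.8%), of which 2041 were higher in WT replicate 2, and the 2 KO libraries in 1330 genes (8.25%). The gap within WT was larger in size than the difference between genotypes in 10280 of the tested genes (63.8%), and the gap within KO in 7253. The median log2 level of X-linked genes, relative to the mean of the 4 libraries, was -0.35 and 0.37 in WT and -0.27 and 0.24 in KO, while the autosomes other than chromosome 11 lay between -0.09 and 0.12. Y-linked genes were high in WT replicate 1 alone. Ddx3y, a Y-linked RNA helicase, had 1237 and 0 normalised counts in WT, compared with 25.7 and 2.86 in KO, and Xist, the RNA that coats the inactive X chromosome, had 15.5 and 550.1 (WT) and 38.2 and 232 (KO). The genes furthest apart between the WT libraries besides Y-linked ones were Xlr3a (7.28 and 918), Xlr4a (0.910 and 145), Xlr5a (0 and 213), 1700013H16Rik (2.73 and 456) and Tspo2 (0.910 and 146), each higher in WT replicate 2. The Xlr genes are near-identical copies, and their counts are uncertain. Chromosome 11 stood at 0.18 in KO replicate 1.

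The comparison of the genotypes in undifferentiated cells asks which genes differ before the cells are made to differentiate. Under the limma test, 0 of 16124 genes (0.00%) passed an adjusted p of 0.05, and the smallest adjusted p was 0.0519. At an unadjusted p below 0.05 there were 1846 genes (11.4%), 598 higher in KO (3.71%) and 1248 lower (7.74%). DESeq2 on the recovered reads gave an adjusted p below 0.05 to 469 of 15811 genes (2.97%), 100 higher in KO (0.632%) and 369 lower (2.33%), while edgeR's quasi-likelihood test gave 0. Among the tested genes, 3069 (19.0%) had both KO values above both WT values and 3339 (20.7%) had both below. Of these, with the size of the log2 change at 1 or above, 193 genes were higher in KO (1.20%) and 1180 lower (7.32%). These counts were 478 and 2180 without WT replicate 1, 606 and 1376 without WT replicate 2, 384 and 1376 without KO replicate 1 and 261 and 1669 without KO replicate 2, so that lower genes outnumbered higher ones each time but to a different extent. Leaving out a library sets 1 library against 2, a rule that is met more easily. These counts are therefore not comparable in size with the 193 and 1180. With all 4 libraries the excess of lower over higher genes was found among large differences, and hardly among all genes that did not overlap. The calls changed with the WT library left out, but DESeq2 was not run without a KO library. Leaving out 1 WT library also takes the gap within WT out of the estimate of spread. Under limma, leaving out WT replicate 2 did not add calls. Without WT replicate 1, DESeq2 called 531 genes higher and 732 lower and limma 29 higher and 92 lower, while without WT replicate 2 the DESeq2 calls were 98 higher and 180 lower.

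**Figure D1:**
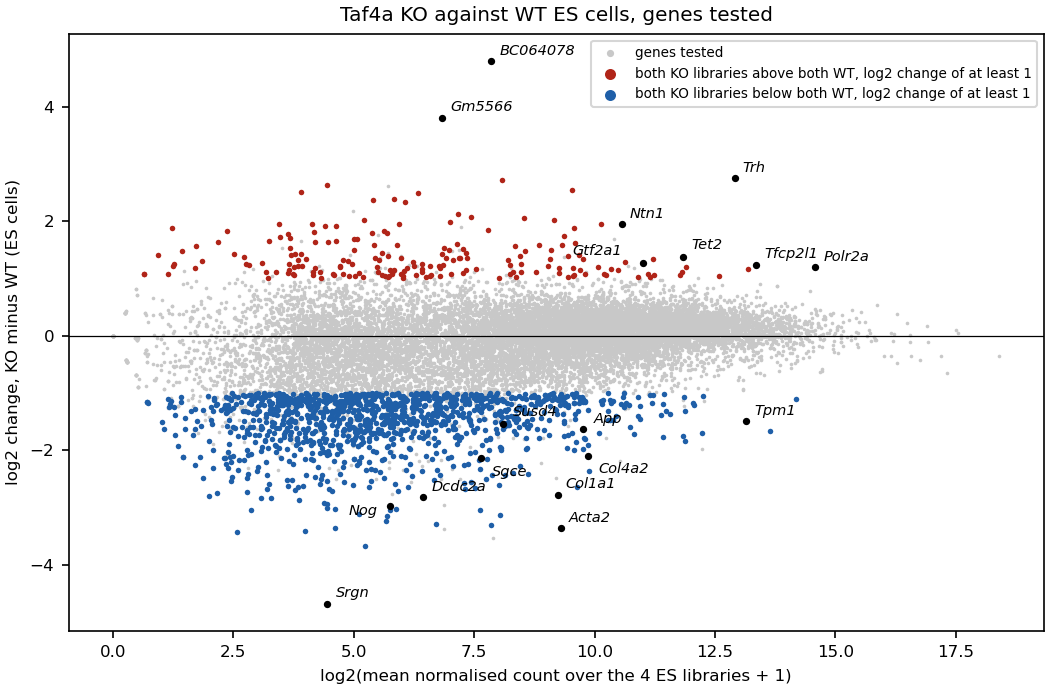
Each point is a tested gene, placed by the log2 of its mean normalised count over the 4 ES libraries (plus 1) and by its log2 change, KO minus WT. Red and blue mark the 193 higher and 1180 lower genes whose 2 KO values lie beyond both WT values with a log2 change of at least 1. Named genes are in black.

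The lower genes were mostly genes of low or moderate expression. Their median level was 64.8 normalised counts in WT, compared with 21.4 in KO, against 483 and 452 over all tested genes, and 88 of the 1180 had 3 reads or fewer in each KO library. The 193 higher genes had median levels of 36.8 in WT, compared with 91.7 in KO. In both groups most genes were protein-coding, 1131 of 1180 lower and 153 of 193 higher genes (95.8% and 79.3%, against 91.0% of all tested genes). Chromosome 11, raised in KO replicate 1, held 30 of the 193 higher and 71 of the 1180 lower genes, against 1338 of the 16124 tested genes. Ntn1, Cdc42ep4, Polr2a, Baiap2 and Tex19.1, named below, are among the 30 higher genes. The part of this chromosome's level in their differences was not tested.

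Among the genes higher in both KO libraries, the smallest p-values belonged to the non-coding BC064078, to Gtf2a1, a component of TFIIA, and to Pccb, a subunit of the mitochondrial propionyl-CoA carboxylase. BC064078 (ENSMUSG00000087150, chromosome 6, 128942979 to 128958058, plus strand) had 24.6 and 7.97 normalised counts in WT, compared with 589 and 302 in KO. The KO libraries were on average 27.4-fold above WT, the largest difference in this direction among autosomal genes with groups that did not overlap and an unadjusted p below 0.05 (log2 change 4.80, SE 0.62, limma adjusted p 0.0519, DESeq2 adjusted p 1.03e-09). It overlaps Clec2g on the same strand, for which 4.55 and 14.4 normalised counts were listed in WT, compared with 4.15 and 10.0 in KO. Gtf2a1 (ENSMUSG00000020962, chromosome 12, 92794356 to 92828927, minus strand) had 1099 and 1308 normalised counts in WT, compared with 3028 and 2759.5 in KO. Both KO libraries were more than 2 times the level of either WT library, with a narrow gap inside each genotype (log2 change 1.27, SE 0.19, limma adjusted p 0.0519, DESeq2 adjusted p 1.66e-06). Pccb had 813 and 690.4 in WT, compared with 1651 and 1519 in KO, a log2 change of 1.08 (DESeq2 adjusted p 6.58e-08).

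The remaining genes of this group came from several functions. Ntn1, the axon guidance cue netrin-1, had 686 and 522 in WT, compared with 3127 and 1725 in KO, and Itgb7, an integrin beta chain, had 331 and 244 (WT) and 835 and 773 (KO). The KO values of both genes were more than 2 times those of WT. D14Ertd668e had 308 and 339.6 in WT, compared with 1144 and 1255 in KO, and the pseudogene Gm5566 had 13.7 and 13.6 (WT) and 155 and 267 (KO), a value that may include reads of other copies. Prkch, a protein kinase C isoform, had 66.4 and 55.0 in WT, compared with 170.2 and 158 in KO. Fbxl17, Cdc42ep4, Crispld2 and Mphosph9 completed the set, with log2 changes of 1.22, 1.06, 1.86 and 1.07. The limma adjusted p-values of these 12 genes ran from 0.0519 to 0.120, and their DESeq2 adjusted p-values from 1.03e-09 to 0.00212. By size of the difference, Trh, the precursor of thyrotropin-releasing hormone, stood next to them. Trh had 1907 and 1730.1 in WT, compared with 7847 and 19267 in KO, so that the KO libraries themselves were more than 2 times apart (log2 change 2.76, SE 0.93, DESeq2 adjusted p 0.0847). The lincRNA 2310043M15Rik had 56.4 and 71.8 (WT) and 258 and 697 (KO), and Slc25a34, a mitochondrial carrier, 2.73 and 7.18 (WT) and 21.6 and 51.5 (KO).

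**Figure D2:**
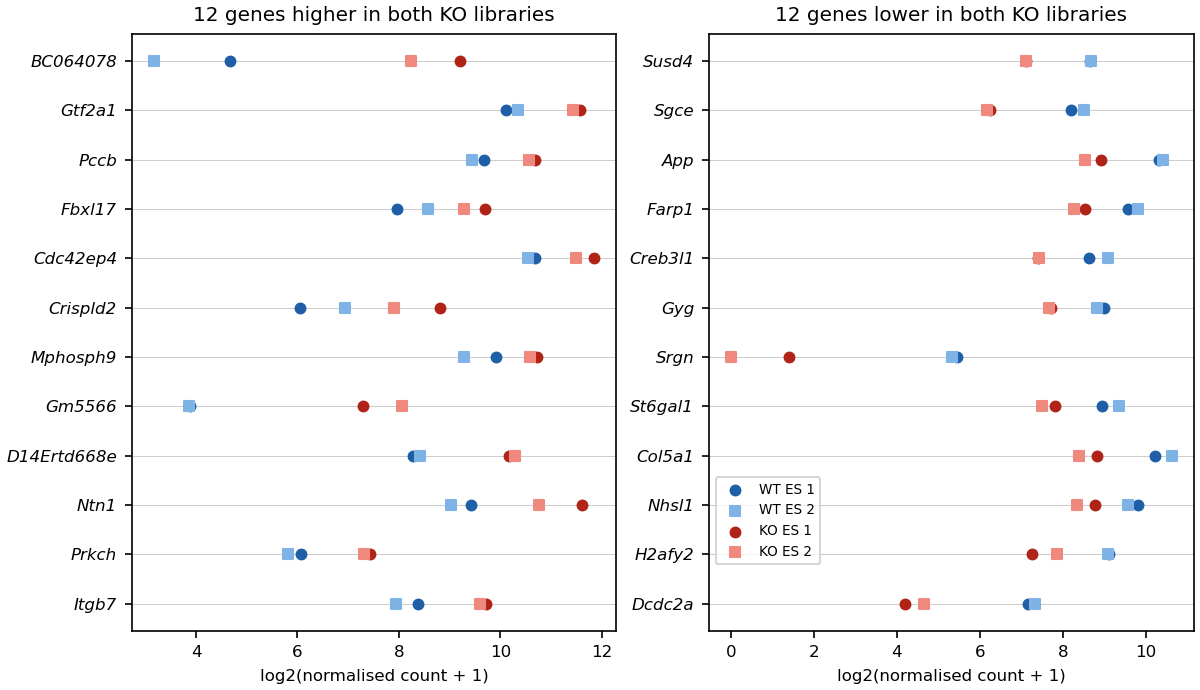
Log2 of the normalised count (plus 1) in each of the 4 ES libraries for the 12 genes per direction with the smallest unadjusted limma p among autosomal genes with a log2 change of at least 1 and groups that do not overlap. Blue marks WT and red KO, circles replicate 1 and squares replicate 2. Srgn was at 1.66 and 0 normalised counts in KO, and BC064078 at 24.6 and 7.97 in WT.

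The components of the transcription machinery were read as lists. Of 18 TFIID identifiers (17 names, with Taf9 listed under a pair of identifiers), 15 had a log2 change above 0, 11 were higher in both KO libraries and 1 was lower, and the median log2 change was 0.23, against -0.0033 over all tested genes. Of all tested genes, 19.0% were higher in both KO libraries and 20.7% lower. At an unadjusted p below 0.05 there were 5 members higher and 0 lower, against 3.71% and 7.74% of all tested genes. The 5 members were Taf6, Taf12, Taf4a, Taf5 and Taf13. Taf6, which pairs with TAF9, had 1982 and 2042 in WT, compared with 2941 and 2814 in KO, a log2 change of 0.52 (SE 0.12, DESeq2 adjusted p 5.38e-04). Taf12, the histone fold partner of TAF4, had 974 and 815 in WT, compared with 1431 and 1340.1 in KO, a log2 change of 0.64 (SE 0.20, DESeq2 adjusted p 0.0490). Both KO values lay above both WT values in each case, and the largest of the 5 differences was 0.66 (Taf13), which was 0.29 without WT replicate 2. Taf6 overlaps Ap4m1 on the opposite strand, which had 389 and 404 normalised counts in WT, compared with 583 and 638 in KO.

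The general transcription factors outside TFIID, with RNA polymerase II, showed the same sign in 18 of 21 members, and 9 were higher in both KO libraries and 1 lower (median log2 change 0.23, and 0.41 without WT replicate 1 and 0.09 without WT replicate 2). At an unadjusted p below 0.05 there were 3 of 21 members, Gtf2a1, Polr2a and Gtf2f1, against 11.4% of all tested genes. Polr2a, the largest subunit of RNA polymerase II, had 22556 and 9089.8 in WT, compared with 36048 and 30068 in KO. The difference rested in large part on the low value of WT replicate 2, and the log2 change of 1.20 (SE 0.31, DESeq2 adjusted p 0.0411) was 0.55 without that library. Gtf2f1, a subunit of TFIIF, had 4685 and 2605 in WT, compared with 5142 and 5763 in KO, again with the lowest value in WT replicate 2, and its log2 change of 0.64 was 0.22 without it. Gtf2a1 did not share this pattern, with a log2 change of 1.39 without WT replicate 2. The other TFIIA gene of the list, Gtf2a2, had a log2 change of 0.00. Of the 31 subunits of Mediator, the complex that links activators to the polymerase, 13 were higher in both KO libraries and 0 lower, against 19.0% and 20.7% of all tested genes. Their median log2 change was 0.16, and 0.05 without WT replicate 2. At an unadjusted p below 0.05 the list held 1 of 31 members, below the 11.4% of all tested genes. This was Med23, with 2585 and 1751 in WT, compared with 3759.7 and 2835 in KO.

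**Figure D3:**
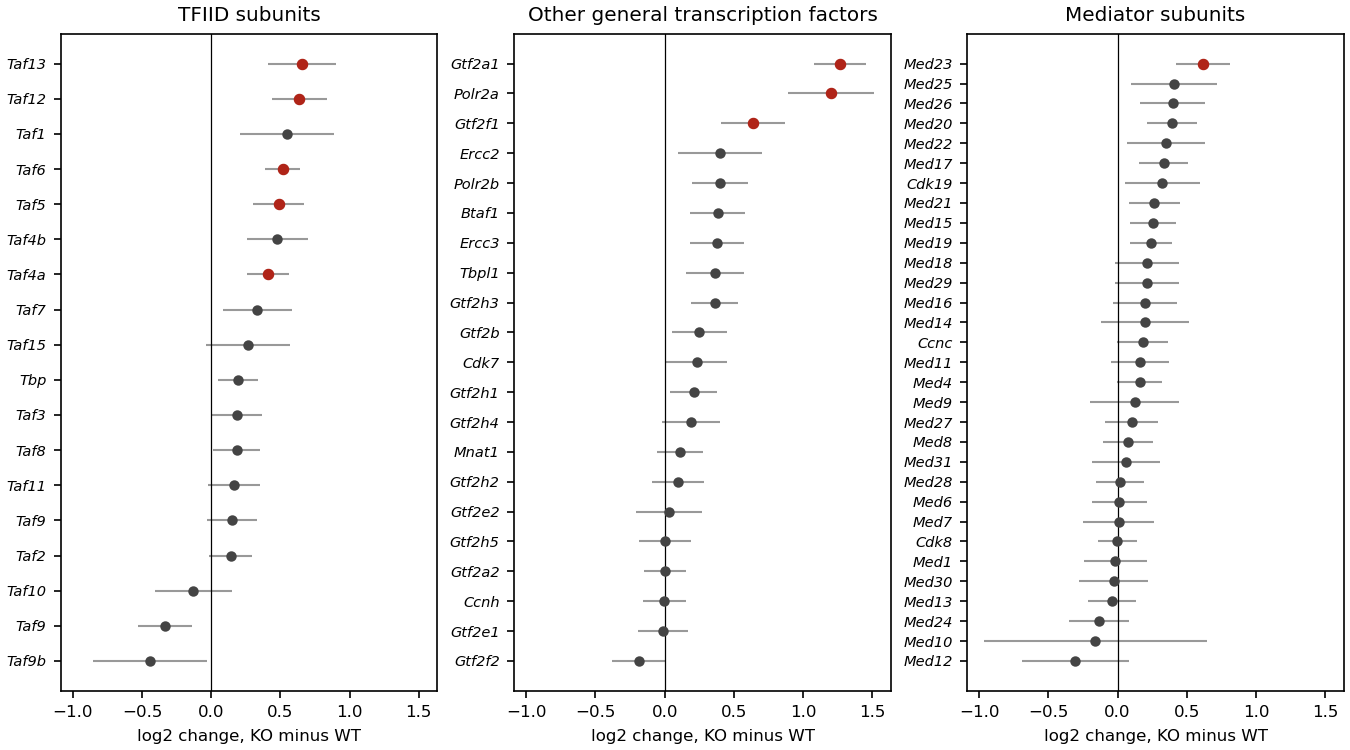
Log2 change, KO minus WT in ES cells, of each tested TFIID subunit, other general transcription factor (with RNA polymerase II subunits) and Mediator subunit. Bars are the standard error from limma, and red points have an unadjusted p below 0.05. Gtf2a1 and Polr2a, at 1.27 and 1.20, stand to the right of every other member.

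Of 29 pluripotency factors, 23 had a log2 change above 0, 10 were higher in both KO libraries and 1 lower, and 5 had an unadjusted p below 0.05, all 5 of them higher (3 by DESeq2). Of all tested genes, 19.0% were higher in both KO libraries, 20.7% lower and 3.71% higher at an unadjusted p below 0.05. The median log2 change of the list was 0.37, the highest of the 32 lists with all 4 libraries. It was 0.26 without WT replicate 1 and 0.51 without WT replicate 2. Several lists stood above it without WT replicate 1. They were X inactivation and Y genes (1.08), general transcription factors outside TFIID (0.41) and Wnt effectors and targets (0.37). Cell cycle genes (0.36), TFIID subunits (0.31) and early neural markers (0.29) stood above it too. Tfcp2l1 (chromosome 1, 120524522 to 120581744, plus strand), a factor of the naive state downstream of LIF, had 5861 and 6661 in WT, compared with 14788 and 14795 in KO. Tet2, which oxidises methylated cytosine, had 1981 and 2082 in WT, compared with 4729 and 5828 in KO. Both were more than 2 times as abundant in each KO library as in each WT library, with log2 changes of 1.24 (SE 0.31, DESeq2 adjusted p 0.0138) and 1.37 (SE 0.32, DESeq2 adjusted p 0.00549). Nr5a2, a nuclear receptor that binds the Pou5f1 gene, had 1119 and 1029 in WT, compared with 2192 and 1699.6 in KO, a log2 change of 0.85 (DESeq2 adjusted p 0.0383). Esrrb had 7375 and 13418 (WT) and 18717 and 17523 (KO), and the X-linked Nr0b1 1526 and 3235 (WT) and 4579.9 and 5042 (KO). In both genes WT replicate 1 was well below WT replicate 2, and DESeq2 gave adjusted p-values of 0.236 and 0.232. For the core factors no difference was detected beyond the spread between libraries. The log2 changes of Pou5f1, Sox2 and Nanog were 0.21, 0.29 and 0.56, with standard errors of 0.38, 0.24 and 0.55, which does not show that their levels were equal. The Nanog value had the other sign without WT replicate 1, at -0.36.

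Uhrf1, which brings the maintenance methyltransferase to replicated DNA, had 11098 and 9591 in WT, compared with 13073 and 14995 in KO, and Dnmt1 itself had 12426 and 9456 (WT) and 14364 and 14515 (KO). The KO values were the higher ones in both genes, by log2 changes of 0.44 and 0.41, but DESeq2 called neither (adjusted p 0.160 and 0.220) and the Dnmt1 value was 0.22 without WT replicate 2. Dnmt3a, a de novo methyltransferase, had 7843 and 8579 in WT and the lower values 4542 and 7069 in KO. Of the cell cycle genes, Ccnd2 (cyclin D2) had 703 and 281 in WT, compared with 1426 and 2102 in KO, a log2 change of 1.96 (DESeq2 adjusted p 0.0395). Its log2 change was 1.30 without WT replicate 2. Over that list, 2 of 26 members were higher and 1 lower at an unadjusted p below 0.05, a share near the 11.4% of all tested genes. Tubb3, a tubulin of neurons, had 2181 and 2263 in WT, compared with 4005 and 3991 in KO, and Tex19.1, a germline and placental gene, had 1412 and 3447 (WT) and 4109 and 6237 (KO).

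Promoters were read for the TATA box, the element that TBP binds. RefSeq promoter sequences (GRCm38.p6, 250 bases before to 50 after the start) were matched by symbol for 10737 of the tested genes, 110 of the 193 higher genes and 772 of the 1180 lower genes. The letters TATAAA on the gene's strand, starting 45 to 20 bases before the annotated start, were found in 9 of the 110 (8.18%), in 22 of the 772 (2.85%) and in 174 of the 10737 (1.62%), and in 2.57% of all 27025 genes of the promoter table. Over the genes that DESeq2 called, the count was 3 of 72 higher (4.17%) and 9 of 282 lower (3.19%). A GC box (GGGCGG or, for the other strand, CCGCCC, anywhere in the 300 bases) was found in 54.5% of the 110, 64.1% of the 772 and 67.9% of the 10737. Over the genes that DESeq2 called, it was found in 69.4% of the higher and 74.5% of the lower ones, both above the 67.9%. The 9 genes were Abca1, Mt4, Tgm3, Cxcl15, Padi4, Tfcp2l1, Polr2a, Baiap2 and Nr0b1, of which Cxcl15 had under 5 normalised counts in each library. Mt4, Tgm3 and Cxcl15 had unadjusted limma p-values of 0.121, 0.123 and 0.101. DESeq2 called Tfcp2l1, Polr2a and Baiap2 alone of the 9, and Polr2a and Baiap2 lie on chromosome 11. The 9 names follow from the motif and were chosen after their values were seen. The 60 bases before the start are shown for Polr2a and Tfcp2l1, with TATAAA in capitals, beside those of the first listed start of Gtf2a1, in which no TATAAA was found. They lie at chr11:69758634-69758693 (minus strand), chr1:118627885-118627944 (plus strand) and chr12:91590488-91590547 (minus strand) of GRCm38.p6.
Polr2a: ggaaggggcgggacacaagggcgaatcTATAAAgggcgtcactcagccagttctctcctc
Tfcp2l1: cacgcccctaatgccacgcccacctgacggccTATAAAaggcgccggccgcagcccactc
Gtf2a1: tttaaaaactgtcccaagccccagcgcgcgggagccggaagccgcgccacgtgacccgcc
TATAAA starts 33 bases before the annotated start of Polr2a and 28 bases before that of Tfcp2l1. A match of these letters is a description and not a mapped site.

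The lower genes with the smallest p-values were Susd4, a membrane protein of the complement control family, Sgce, an imprinted sarcoglycan, App, the amyloid precursor protein, and Farp1. Susd4 (ENSMUSG00000038576, chromosome 1, 184693991 to 184826729, plus strand) had 399.6 and 411 normalised counts in WT, compared with 138 and 138 in KO. Its libraries within a genotype were nearly equal, and WT was 2.94-fold above KO (log2 change -1.55, SE 0.21, limma adjusted p 0.0519, DESeq2 adjusted p 2.53e-09). Sgce (ENSMUSG00000004631, chromosome 6, 4624350 to 4697204, minus strand) had 291 and 359.6 in WT, compared with 74.7 and 71.5 in KO. This was 4.45-fold higher in WT, with a log2 change of -2.13 (SE 0.32, limma adjusted p 0.0519, DESeq2 adjusted p 1.07e-06). App had 1276 and 1354 in WT, compared with 486 and 369 in KO, and Farp1 759 and 887 (WT) and 369 and 308 (KO).

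The other 8 genes of this group were lower in both KO libraries as well. Srgn, the proteoglycan serglycin of secretory granules, had 42.8 and 39.1 in WT, compared with 1.66 and 0 in KO. The KO libraries held 3 reads or fewer, so that WT was at least 17.7-fold higher when 3 reads per KO library are taken as the floor (DESeq2 adjusted p 0.00165). Dcdc2a, a microtubule-binding doublecortin protein, had 143 and 159 in WT, compared with 17.4 and 24.3 in KO. H2afy2, which encodes the histone variant macroH2A2 and overlaps Aifm2, had 555 and 539 in WT, compared with 152 and 231 in KO. St6gal1, a sialyltransferase, had 491 and 649.8 (WT) and 224 and 179 (KO), and Creb3l1, a membrane-bound transcription factor, 397 and 538 (WT) and 168 and 170.1 (KO). In each of these genes the lowest WT value was more than 2 times the highest KO value. Gyg (glycogenin), Nhsl1 and Col5a1 had log2 changes of -1.22, -1.13 and -1.81. The 12 genes had limma adjusted p-values of 0.0519 to 0.0534. Larger differences with wider spread were found in Acta2 (1022 and 1230.2 in WT, compared with 213 and 55.0 in KO), Ldb2 (10.9 and 8.77 (WT) and 0 and 0 (KO)), Glt25d2 (12.7 and 42.3 (WT) and 0 and 4.29 (KO)) and Calr4 (6.37 and 84.5 (WT) and 2.49 and 0.715 (KO)).

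Markers of fibroblasts, the cell type of the feeder layer, were lower in KO as a group. Of 37 names, 32 were tested, and 18 of these were lower in both KO libraries, 0 were higher and 15 had an unadjusted p below 0.05, all lower (median log2 change -1.06). Of all tested genes, 20.7% were lower in both KO libraries, 19.0% higher and 7.74% lower at an unadjusted p below 0.05. DESeq2 called 10 of the 32 markers, all lower. Col1a1, the alpha 1 chain of type I collagen, had 662 and 1451 in WT, compared with 119 and 170.1 in KO. Col1a2, its partner chain, had 168 and 549 in WT, compared with 25.7 and 108 in KO. In both genes the highest value was that of WT replicate 2 and the lowest that of KO replicate 1, and the log2 changes were -2.78 (SE 0.64, DESeq2 adjusted p 0.00117) and -2.50 (SE 0.73, DESeq2 adjusted p 0.0253). The Col1a2 value was -1.65 without WT replicate 2 and -1.49 without KO replicate 1. Col3a1 had 56.4 and 135 in WT, compared with 8.30 and 11.4 in KO, Pdgfrb, the receptor for platelet-derived growth factor, 25.5 and 82.9 (WT) and 4.15 and 10.7 (KO), and Twist2 21.8 and 19.9 (WT) and 4.15 and 6.43 (KO). These 5 were the defining markers that did not overlap between genotypes.

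The other defining markers did not separate the genotypes. Thy1 had 129 and 466 in WT, compared with 48.1 and 177 in KO, and Postn 4.55 and 38.3 (WT) and 1.66 and 5.72 (KO). Dcn, Prrx1 and Col6a3 were highest in KO replicate 2, at 21.4, 11.4 and 13.6 normalised counts. Fap and Lum had 3 reads or fewer in each of the 4 libraries, at most 2.14 normalised counts (Fap in KO replicate 2). The median log2 change of the 10 tested defining markers was -1.81, and it was -2.77 without WT replicate 1 and -1.06 without WT replicate 2. Summed over the 12 defining markers, the level was 1089 and 2773 normalised counts in WT, compared with 220.0 and 538 in KO. The WT libraries were thus more than 2 times apart in this sum, and so were the KO libraries. In bulk RNA, fewer fibroblasts in a library and less of these RNAs per cell cannot be told apart. The part of feeder RNA in the differences of other genes was not tested. In the embryoid bodies (labelled EB4, EB5 and EB8), differentiating aggregates of ES cells, the median log2 change of the 32 genes was -0.75 at EB4, -0.59 at EB5 and -0.15 at EB8. Per the study, feeders were removed before aggregation for spontaneous differentiation. For the neuronal protocol it refers to earlier work. Whether these RNAs in embryoid bodies came from feeder cells or from the aggregates themselves was not tested.

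**Figure D4:**
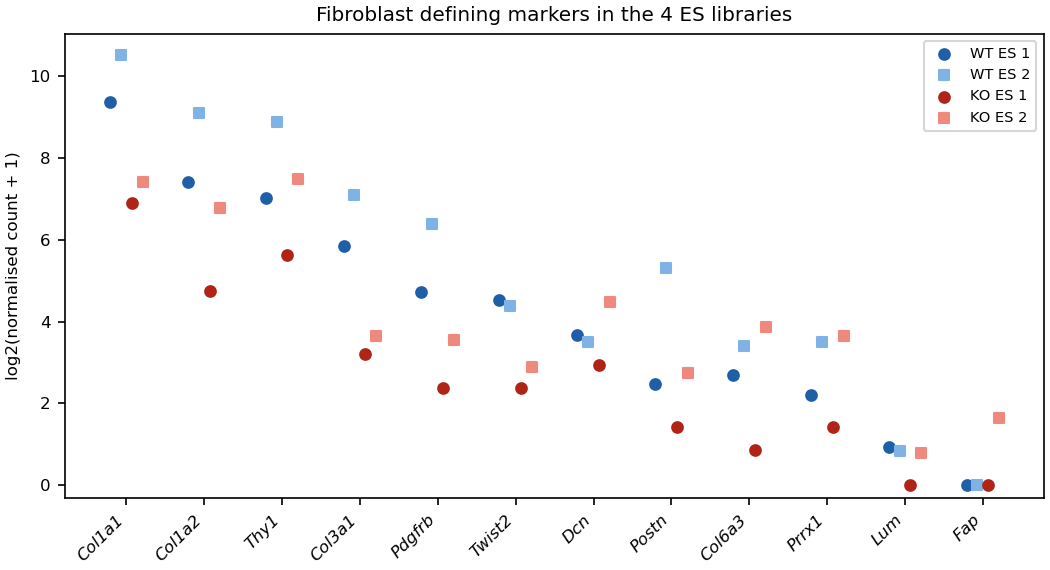
Log2 of the normalised count (plus 1) of the 12 fibroblast defining markers in the 4 ES libraries, ordered by mean level. Blue marks WT and red KO, circles replicate 1 and squares replicate 2. Col1a1 is highest in WT replicate 2 (1451) and lowest in KO replicate 1 (119), while Dcn and Col6a3 are highest in KO replicate 2.

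Genes controlled by YAP or by actin through the serum response factor were lower in KO without exception in sign. YAP is the effector of the Hippo pathway and acts with TEAD factors, and serum response factor drives contractile genes when actin polymerises. All 20 tested members had a log2 change below 0, 11 were lower in both KO libraries and 10 had an unadjusted p below 0.05, against 20.7% and 7.74% of all tested genes, while DESeq2 called 3 lower (median log2 change -1.12, and -0.59 without WT replicate 1 and -1.72 without WT replicate 2). The list shares Acta2, Tagln and Thbs1 with the fibroblast markers. Axl, a receptor tyrosine kinase, had 742 and 453 in WT, compared with 227 and 156 in KO, a log2 change of -1.62 (SE 0.39, DESeq2 adjusted p 0.00632). Tpm1, a tropomyosin, had 17513 and 8629.8 in WT, compared with 7689.7 and 2491 in KO. Tpm1 lay in the order WT replicate 1, WT replicate 2, KO replicate 1, KO replicate 2, and the gap between WT replicate 2 and KO replicate 1 was small. Ankrd1, a YAP target of muscle and stroma, had 30.9 and 34.3 in WT, compared with 4.15 and 5.00 in KO, and Crim1 579.8 and 451 (WT) and 289.7 and 193 (KO). The summed level of the list, 142427 and 82475 normalised counts in WT, compared with 84611 and 58134 in KO, overlapped between the genotypes.

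The 6 letters bound by TEAD factors, GGAATG (or CATTCC on the other strand), were found in 10 of the 16 promoters of this list that were matched (62.5%), and in 14.9% of the promoters of tested genes. The list was made of genes held to be targets of YAP or serum response factor, so its share does not bear on the KO difference. The letters were found in 14.5% of the genes higher in KO by at least 1 log2 unit and in 18.5% of the lower ones. Among the genes that DESeq2 called, the shares were 19.4% of the higher and 22.7% of the lower ones. A stretch around the motif, in capitals, is shown for 3 members at chr7:25788944-25788983, chr19:36119945-36119984 and chr9:67049247-67049286 (GRCm38.p6, minus strand).
Axl: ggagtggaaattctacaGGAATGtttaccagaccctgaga
Ankrd1: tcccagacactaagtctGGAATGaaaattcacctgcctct
Tpm1: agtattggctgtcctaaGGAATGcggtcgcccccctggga

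Markers of the extraembryonic lineages were lower in KO as well. Of 20 tested markers of extraembryonic endoderm, the yolk sac lineage, 13 were lower in both KO libraries and 2 higher, and 8 had an unadjusted p below 0.05, all lower (median log2 change -1.01). The same shares over all tested genes were 20.7%, 19.0% and 7.74%. Basement membrane genes were among the lower markers. Col4a1, a chain of type IV collagen, had 3130.1 and 2390.3 in WT, compared with 1078 and 634 in KO, and its partner Col4a2 1501 and 1479.8 (WT) and 529 and 224 (KO). They overlap each other on opposite strands, so that their counts are not fully separate, and their log2 changes were -1.73 and -2.11 (DESeq2 adjusted p 5.22e-04 and 4.84e-04). Lamb1, a laminin chain, had 6976 and 6462 in WT, compared with 4235 and 2962 in KO, and Sparc, which binds collagen, 10163 and 12851 (WT) and 6436 and 5425 (KO). Sparc stands in the fibroblast list too. The transcription factors that define the lineage were mixed. Gata6 had 30.0 and 21.5 normalised counts in WT, compared with the lower values 13.3 and 16.4 in KO. Gata4, by contrast, had 100.1 and 81.3 in WT, compared with 34.0 and 106 in KO, and Sox7 74.6 and 112 in WT, compared with 67.2 and 148 in KO, so that neither separated the genotypes, and the low Sox17 and Foxa2 overlapped too. These factors are defining markers that were named after their values were seen. Dab2, an endocytic adaptor, had 282 and 178 in WT, compared with 75.5 and 55.7 in KO.

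Of 15 tested trophoblast markers, 9 were lower in both KO libraries and 0 higher, and 6 had an unadjusted p below 0.05 (median log2 change -0.90). Of all tested genes, 20.7% were lower in both KO libraries, 19.0% higher and 7.74% lower at an unadjusted p below 0.05. DESeq2 called 3 members of the list lower. The keratin Krt8 had 10548 and 4082 in WT, compared with 3627 and 1133 in KO, Krt18 5568 and 2726 (WT) and 2043 and 634 (KO), and Krt7 312 and 233 (WT) and 75.5 and 42.2 (KO). With DESeq2 adjusted p-values of 0.108, 0.0833 and 0.0345, only Krt7 of the 3 was called. Krt8 and Krt18, the keratin pair of simple epithelia and members of the endoderm list too, were highest in WT replicate 1 and lowest in KO replicate 2. Gata3, a trophoblast transcription factor with the largest log2 change of the list (-2.43, DESeq2 adjusted p 0.0235), had 114 and 259.9 in WT, compared with 34.9 and 27.9 in KO, whereas Cdx2 had 119 and 27.9 in WT, compared with 49.0 and 32.9 in KO. Of the adhesion genes, Cd44 had 161 and 130.0 in WT, compared with 41.5 and 36.5 in KO, the desmosomal Dsp 3228 and 2243 (WT) and 1508 and 869.8 (KO), and the keratin Krt19 1588 and 809 (WT) and 559 and 174 (KO). In that list 5 of 30 members had an unadjusted p below 0.05, all lower, against 7.74% of all tested genes.

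Signalling lists of ligands, receptors and antagonists held more lower than higher members. In the bone morphogenetic protein (BMP) list, 18 of 31 tested members were lower in both KO libraries and 3 higher, and 10 had an unadjusted p below 0.05, all lower, against 20.7% and 7.74% of all tested genes (median log2 change -0.55). DESeq2 called 1 of them, lower. Nog (chromosome 11, 89161952 to 89163873, minus strand), the secreted BMP antagonist noggin, had 96.5 and 90.9 in WT, compared with 18.3 and 6.43 in KO, a log2 change of -2.98 (SE 0.98, limma adjusted p 0.253, DESeq2 adjusted p 0.0617). The WT values were nearly equal and the KO values nearly 3 times apart. Bmp1, a protease that frees ligands and processes collagens, had 766 and 700.0 in WT, compared with 364 and 149 in KO, the ligand Bmp8b 378 and 246 (WT) and 133 and 48.6 (KO), and the receptor Bmpr2 658 and 548 (WT) and 356 and 369.5 (KO). Id2, a direct BMP target, had 2198 and 1537 in WT, compared with 1166 and 951 in KO.

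Of 20 tested Wnt ligands and genes of their release, 9 were lower in both KO libraries and 1 higher, and 5 had an unadjusted p below 0.05, all lower (median log2 change -0.83, and -0.29 without WT replicate 1 and -1.35 without WT replicate 2). Of all tested genes, 20.7% were lower in both KO libraries and 19.0% higher. At an unadjusted p below 0.05, 7.74% of them were lower and 3.71% higher. Wls, the carrier that takes Wnt proteins to the cell surface, had 766 and 861 in WT, compared with 282 and 212 in KO, a log2 change of -1.73 (SE 0.43, DESeq2 adjusted p 0.00753). Wnt4 had 331 and 207 in WT, compared with 101 and 67.9 in KO, and Wnt7a 122 and 46.2 (WT) and 15.8 and 10.0 (KO). Wnt11 and Wnt10b were low in all libraries, with at most 37.5 normalised counts. Among receptors and antagonists, 7 of 32 were lower at an unadjusted p below 0.05 and 1 was higher (median log2 change -0.50). The secreted Dkk3 had 112 and 249 in WT, compared with 57.3 and 56.5 in KO, the receptor Fzd4 81.9 and 70.2 (WT) and 40.7 and 36.5 (KO), and Fzd5, the higher one, 1964 and 1084 (WT) and 2406 and 2555 (KO). The effectors and targets of the pathway had a median log2 change of 0.08 (0.37 without WT replicate 1 and -0.18 without WT replicate 2), with 2 of 19 members lower and 1 higher. The feedback inhibitors Nkd1 and Nkd2 were the lower ones, and the higher one, Ctnnb1 (beta-catenin), had 26056 and 24980.5 in WT, compared with 31087 and 31485 in KO.

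In the Nodal and TGF-beta list, 5 of 22 members had an unadjusted p below 0.05, all lower, and DESeq2 called the same number (median log2 change -0.50, and -0.28 without WT replicate 1 and -0.30 without WT replicate 2). Of all tested genes, 7.74% were lower at that unadjusted p. Tgfb2, a TGF-beta ligand, had 329 and 281 in WT, compared with 93.0 and 23.6 in KO, a log2 change of -2.67 (SE 0.50, DESeq2 adjusted p 4.84e-04) and of -1.70 without KO replicate 2. Tgfb3 had 31.9 and 36.7 (WT) and 8.30 and 7.15 (KO), and Smad3, which carries the signal to the nucleus, 770.0 and 908 (WT) and 425 and 499 (KO). The latent TGF-beta binding protein Ltbp1 and the convertase Furin were lower in both KO libraries as well, with log2 changes of -0.86 and -0.81, the latter -0.51 without WT replicate 2. In the FGF list 2 of 24 members were lower at an unadjusted p below 0.05 and 1 was higher, a share near the 11.4% of all tested genes. Fgf17 was the higher one, with 349.5 and 527 in WT, compared with 1538 and 851 in KO.

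Imprinted genes, expressed from the allele of one parent, held 7 of 24 members lower at an unadjusted p below 0.05 and 0 higher (13 lower in both KO libraries, median log2 change -0.64). Of all tested genes, 7.74% were lower at that p, 3.71% higher, and 20.7% lower in both KO libraries. Besides Sgce, Peg10, its neighbour in the same imprinted cluster, had 32439 and 18818 in WT, compared with 11115 and 11731 in KO. Igf2, a foetal growth factor, had 2129 and 1202 in WT, compared with 621 and 392 in KO, and Dlk1 274 and 191 (WT) and 123 and 116 (KO). Plagl1 had 489.7 and 1561 in WT, compared with 349 and 407 in KO, a difference that rested on WT replicate 2, with a log2 change of -1.21 in all libraries and -0.38 without it. Of 21 retinoid genes, 5 were lower and 0 higher at an unadjusted p below 0.05. Stra8, a retinoic acid target of germ cells, had 83.7 and 299 in WT, compared with 14.1 and 16.4 in KO, and Rbp4, the retinol carrier, 26.4 and 98.1 (WT) and 5.81 and 4.29 (KO) (DESeq2 adjusted p 7.92e-06 and 8.96e-04). In the germline list 4 of 19 members were lower and 1 higher at that level. Dazl, an RNA-binding protein of germ cells, had 111 and 1582 in WT, compared with 68.1 and 118 in KO, and its log2 change of -2.22 was -0.31 without WT replicate 2.

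In the interferon list, B2m, the shared light chain of class I antigen presentation, had 512 and 599.6 in WT, compared with 294 and 239 in KO, a log2 change of -1.06 (SE 0.22, DESeq2 adjusted p 0.00107). The heavy chain H2-K1 had 1026 and 1633 in WT, compared with 613 and 230.1 in KO, and H2-D1 631 and 674 (WT) and 344 and 245 (KO), with DESeq2 adjusted p-values of 0.0349 and 0.126 and the reservation that these genes are similar enough to share reads. In the same list Ddx58, which encodes the RNA sensor RIG-I, was higher, with 931 and 1365 in WT, compared with 2065 and 2088 in KO, so that the list did not go one way (5 lower and 2 higher of 20). In the amino acid stress list, Phgdh and Psat1 belong to serine synthesis. Phgdh had 3493 and 3920.2 in WT, compared with 1779 and 1885 in KO (log2 change -1.01, SE 0.20, DESeq2 adjusted p 9.36e-04), and Psat1 10108 and 11778 (WT) and 6624 and 6169 (KO). Both KO values lay below both WT values, by more than the gap within either genotype. Over that list 3 of 22 members were lower and 0 higher at an unadjusted p below 0.05. Of all tested genes, 7.74% were lower at that level and 3.71% higher.

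The remaining lists stood below the background of 11.4% of genes at an unadjusted p below 0.05. The p53 list had 2 of 26 members lower, glycolysis 1 of 29, cholesterol synthesis 1 lower and 1 higher of 23, immediate early genes 1 of 19, epiblast priming genes 1 of 13, early neural markers 1 higher of 18, mesoderm markers 0 of 14 and genes of the 2-cell-like state 0 of 7. The share was above it in the DNA methylation list, in which 4 of 12 members were higher and 1 lower. Under limma, 0 members of any list passed the adjusted threshold. DESeq2 called 2 TFIID members and 2 other general transcription factors higher, and it called 6 extraembryonic endoderm markers, 2 members each of the Wnt ligand, Wnt receptor, imprinted, retinoid, germline and interferon lists and 1 each of the adhesion and amino acid stress lists lower. Of the 7 tested genes of X inactivation and the Y chromosome, 0 had an unadjusted limma p below 0.05, and DESeq2 called 1 lower. These genes followed the differences between single libraries described above.

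**Figure D5:**
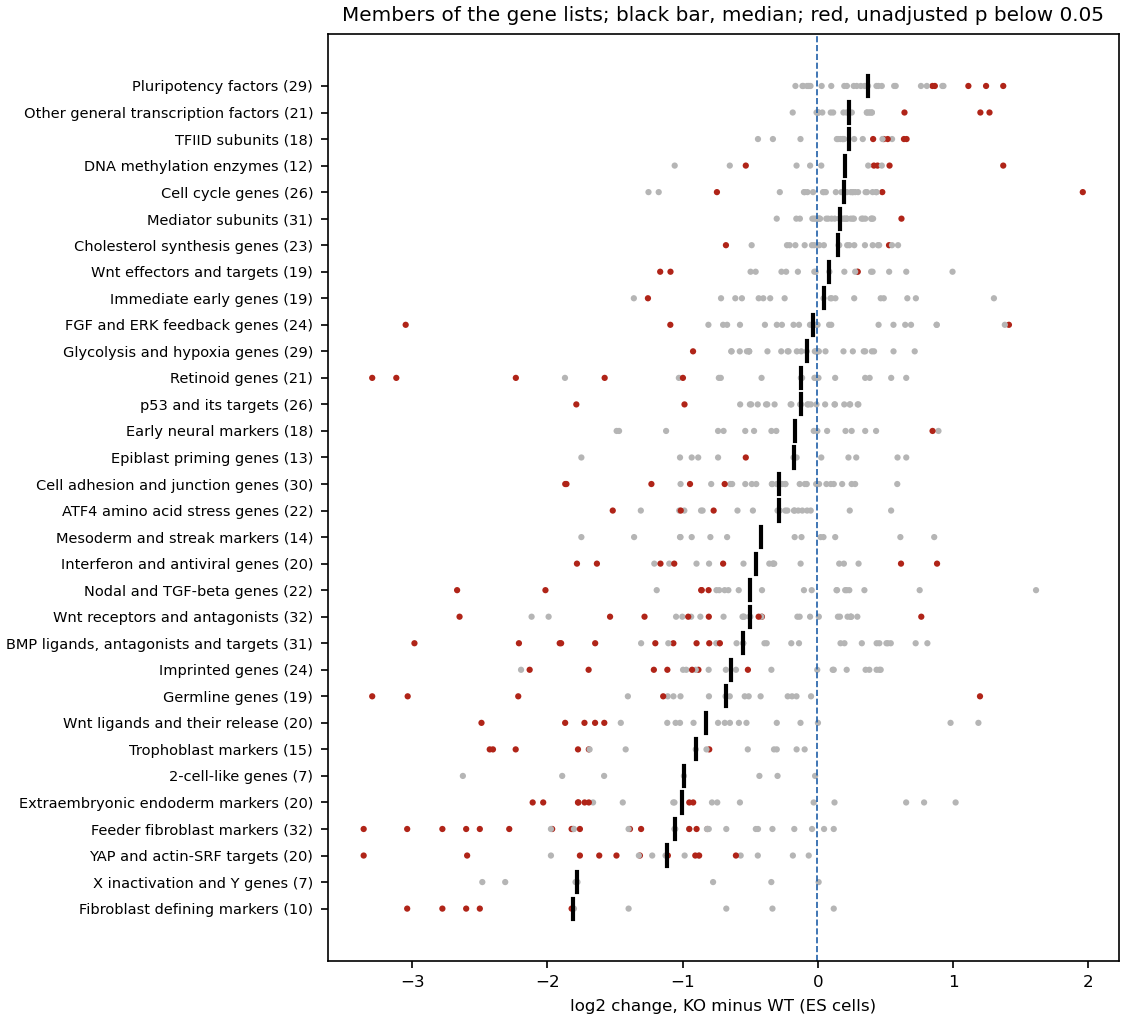
Log2 change, KO minus WT in ES cells, of the tested members of each of 32 gene lists, ordered by the list's median (black bar), with the number tested in brackets. Red points have an unadjusted limma p below 0.05, and the dashed line is the median of all tested genes. With all 4 libraries, fibroblast defining markers stand lowest at -1.81 and pluripotency factors highest at 0.37.

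The embryoid body libraries share no library with the ES comparison, so that the genes chosen at ES can be read in them. Per the study, 2 lines of each genotype were established, so both sets of libraries rest on the same lines. Agreement across stages is therefore not independent of the lines. Line differences other than the genotype were not tested apart from it. Of the 193 genes higher in KO ES cells, 115 (59.6%) were higher in both KO libraries at EB4, 113 (58.5%) at EB5 and 91 (47.2%) at EB8, against 25.3%, 26.7% and 30.4% of all tested genes. Of the 1180 lower genes, 645 (54.7%) were lower at EB4, 557 (47.2%) at EB5 and 507 (43.0%) at EB8, against 26.6%, 28.1% and 33.5%. The opposite arrangement was found at EB8 for 48 of the higher genes (24.9%) and 299 of the lower ones (25.3%). Gtf2a1 had log2 changes of 1.21, 1.21 and 1.15 at EB4, EB5 and EB8, close to its 1.27 in ES cells. Sgce, at -1.34, -1.56 and -1.97, App, at -1.80, -1.33 and -0.98, H2afy2, at -2.36, -1.79 and -1.69, and Nog, at -3.09, -1.98 and -3.04, kept a negative sign at each stage. Polr2a kept a positive one, at 0.91, 1.05 and 1.11. Susd4 had smaller differences later, at -0.88, -0.79 and -0.49. The fibroblast gene Col1a1 went from -2.78 in ES cells to -0.74, -0.36 and 0.00.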

How the data were processed

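The deposited signal values are read counts per gene divided by DESeq2 size factors. Per the study's methods and processing notes, the authors sequenced poly-A RNA as single-end reads (CASAVA 1.7 and 1.8), aligned them with TopHat2 2.0.10 to mm9, counted genes with HTSeq 0.5.4p3 and normalised with DESeq2 1.0.19. The annotation release and the strand setting are not given in the sources used here.

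Values were tested on log2(normalised count + 1) with limma 3.58.1 (R 4.3.3), as 8 group means over the 16 libraries with a trended variance. Genes with a mean of at least 10 entered, and p-values were adjusted by Benjamini-Hochberg over the 16124 genes. Dividing by each library's smallest step gave whole reads for 100.0% of values (tolerance 0.001), on which edgeR 4.0.16 and DESeq2 1.42.0 were run as alternatives. Floors of 3 reads cover counting error only. Standard errors are those of limma and come from the spread between libraries. GENCODE M1 (NCBI37) held 27603 of the 27807 identifiers. Embryoid body libraries held 22442118 to 27685306 reads.

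Genes were named by rule: per direction the 12 smallest p-values among autosomal genes with groups that do not overlap and a log2 change of at least 1, the 5 largest changes under the same conditions, up to 6 members per list with an unadjusted p below 0.05, a set of markers, and the 8 widest WT gaps. The 32 lists and their members were chosen with earlier results of these data known. Alternatives were other pseudocounts, filters, scalings, tests and sets of libraries. Scripts were tested on simulated data. Figures were drawn with matplotlib 3.10.9.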

Additional observations from a re-analysis of the deposited data

Results flagged for a closer look

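The values below are the KO minus WT log2 change at EB8 less that in ES cells, and the limma test of this difference across all genes gave each an adjusted p of 0.000213 to 0.0474. The EB8 and ES comparisons share no libraries, but the difference contains the ES values by which many of these genes were named. That choice favours a shift toward 0 from ES to EB8, and these p-values do not allow for it. Among genes higher in KO ES cells, the difference was negative for BC064078 (-6.72), Fbxl17 (-1.44), Cdc42ep4 (-1.55), Ntn1 (-3.62), Tubb3 (-4.63), Ccnd2 (-5.94), Dnmt1 (-0.92) and Cdk2 (-1.07). All 8 were below 0 at EB8, from -0.21 for Fbxl17 to -3.99 for Ccnd2. It was positive for D14Ertd668e (2.25), Tfcp2l1 (2.70), Nr5a2 (3.16), Esrrb (3.49) and Tex19.1 (2.93), each further above 0 at EB8. It was also positive for Nanog (4.84) and Pou5f1 (3.72), for which no difference was detected in ES cells. Among genes lower in KO ES cells, it was positive for Farp1 (1.52), Creb3l1 (2.24), Srgn (3.88), Calr4 (6.16), Sparc (1.30), Bmp8b (3.43), Tgfb2 (2.58), Lamb1 (1.36) and B2m (1.14), of which Srgn and Tgfb2 were still below 0 at EB8, at -0.81 and -0.09. It was positive too for the germline and placental genes Stra8 (5.26), Brdt (2.67), Asz1 (7.45), Dazl (5.52) and Esx1 (5.30). Their log2 changes were below 0 in ES cells and above 0 at EB8. The ES values of Dazl overlapped between genotypes. Without WT ES replicate 2 the ES log2 changes were -0.31 for Dazl, -1.37 for Asz1 and -1.12 for Esx1.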

How the results depend on the processing

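The limma counts of genes past an adjusted p of 0.05, 0 higher and 0 lower in KO, were 2 and 6 with a pseudocount of 0.1, 5 and 11 with 5, 0 and 1 without a filter, 4 and 12 at a mean of at least 50, 4 and 15 with upper-quartile rescaling, 2 and 4 with a correlation within genotype and replicate number and 4 and 14 without chromosomes X and Y. DESeq2 gave 100 and 369, and 44 and 156 on only the ES libraries. Leaving out 1 library gave 0 to 29 higher and 0 to 92 lower, the highest without WT replicate 1. In DESeq2, added after seeing the data, the counts were 531 and 732 without WT replicate 1 and 98 and 180 without WT replicate 2. Quantile normalisation, edgeR and limma on only the ES libraries gave 0 and 0. At an unadjusted p below 0.05 (598 and 1248), 333 were higher on only the ES libraries, 362 in DESeq2 on them, 1561 in DESeq2 without WT replicate 1, and 88 higher and 775 lower had a log2 change of at least 1. Leaving out 1 library gave 246 to 1360 higher and 810 to 1641 lower. The split was 408 and 1434 with upper-quartile rescaling and 560 and 836 with quantile normalisation, which moved the median of all genes by -0.055 and 0.077. Of the 1846 genes, 1845 kept their sign without WT replicate 2, and all did in the other settings that tested them. The 1846 genes were chosen by their p in the main fit on the same libraries, which favours a kept sign. Their kept signs are therefore no independent support. The cause of the shifts between settings was not tested.

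With the replicate number as a block the counts were 5 higher and 13 lower. The labels give only a number, and libraries of the same number correlated in their deviations at 0.335 in ES cells.

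Log2 changes that took the other sign when 1 library was left out ran from -0.36 to 1.48 for Nanog, -0.66 to 0.89 for Dcn, -1.45 to 0.78 for Prrx1, -2.17 to 0.82 for Col6a3, -5.71 to 1.08 for Kdm5d, -4.67 to 1.11 for Uty, -6.93 to 3.34 for Ddx3y, -6.89 to 1.93 for Eif2s3y, -2.53 to 2.54 for Xist, -6.64 to 1.10 for Xlr5a, -6.84 to 0.10 for 1700013H16Rik and -3.90 to 2.37 for Tspo2. Prrx1 was 0.18 with quantile normalisation. Xist was -0.075 with a pseudocount of 5, -0.050 with upper-quartile rescaling, -1.07 in edgeR and in DESeq2 and -1.05 in DESeq2 on only the ES libraries.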
